A study of Mus musculus with 2 samples.

Results

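At late passage, 2236 of 21387 mouse embryonic stem cells (10.5%) carried the transcript signature of an extra chromosome 8 with no sign of an extra chromosome 1 or 14, and 1812 cells (8.47%) showed no such sign for any of these chromosomes. These classes were compared for genes on chromosome 8 and for genes elsewhere. Cells were barcodes with at least 18000 unique molecular identifiers (UMIs, counted transcripts), at least 1000 genes, at most 10% mitochondrial UMIs, at least 10 UMIs of Pou5f1, fewer than 5 of the fibroblast genes Col1a1 and Bgn together, and fewer than 5 of the primed-state genes Fgf5, Fgf8 and Car2 together. Per cell, the chromosome 8 ratio is the UMIs on chromosome 8 over those on the autosomes other than 1, 8 and 14, divided by the median of time 1 cells. Ratios for 1 and 14 were built alike. A gain meant a ratio of at least 1.3, and no gain a ratio below 1.15. The cells were thus chosen by their chromosome 8 UMIs, and every value on that chromosome is given as a description only.

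The cells came from 9 lines of the inbred strain C3H/HeSn-Paf/J, 3 each derived from XX, XO and XY embryos, pooled and grown in serum and leukaemia inhibitory factor on irradiated fibroblast feeders. No edited allele or drug is given for any group. Time 1 was an early passage and time 2 came 10 passages later, with 1 droplet library each. The line of origin of a cell is unknown here, so line and gain cannot be told apart, and cells are not replicates. Intervals below are 95% intervals for counting error only, and no test was made.

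Embryonic stem cells gain whole chromosomes during culture, and trisomy 8 is among the recurrent gains in mouse lines, where it can spread through a culture. An extra copy usually raises transcripts of most genes on that chromosome, which is called a dosage effect. Genes elsewhere are known to change in aneuploid cells as well. Stem cells in serum move between a naive state and a primed one that precedes differentiation.

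The time 2 library held 1843588321 UMIs and the time 1 library 1735810403, and 197 barcodes with at least 18000 UMIs were shared by both. The gained class had a median of 41613 UMIs per cell against 49847.5 in the class with no gain. Thinned to 18000 UMIs, a cell had a median of 3897 against 3918 genes. Feeder fibroblast markers summed to 6.71 CPM (counts per 1e6 UMIs of the class) in gained cells and 9.21 CPM in cells with no gain, while 11 pluripotency markers off chromosome 8 summed to 7064 CPM and 11129 CPM. The limits on Pou5f1, Col1a1 and Bgn in the choice of cells bear on these sums, so they are no separate check of the label. The sums cover all cells of each class, and the classes differ in X output, as described below. The 11 pluripotency markers had a median log2 ratio, gained over not gained, of -0.30 in all cells. In cells with low X output it was -0.06.

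The chromosome 8 ratio fell into separate modes at time 2. The fullest bin of cells with no gain ran from 0.9 to 0.95 with 561 cells, and that of gained cells from 1.4 to 1.45 with 636 cells. Between the limits lay 186 cells that belong to neither class. Just below the gain threshold, from 1.25 to 1.3, were 98 cells, and just above it, from 1.3 to 1.35, were 238. At the other limit, 73 cells lay from 1.1 to 1.15 and 47 from 1.15 to 1.2. At time 1 the same rule found 952 gained cells and 11990 with no gain among 14079.

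**Figure D1:**
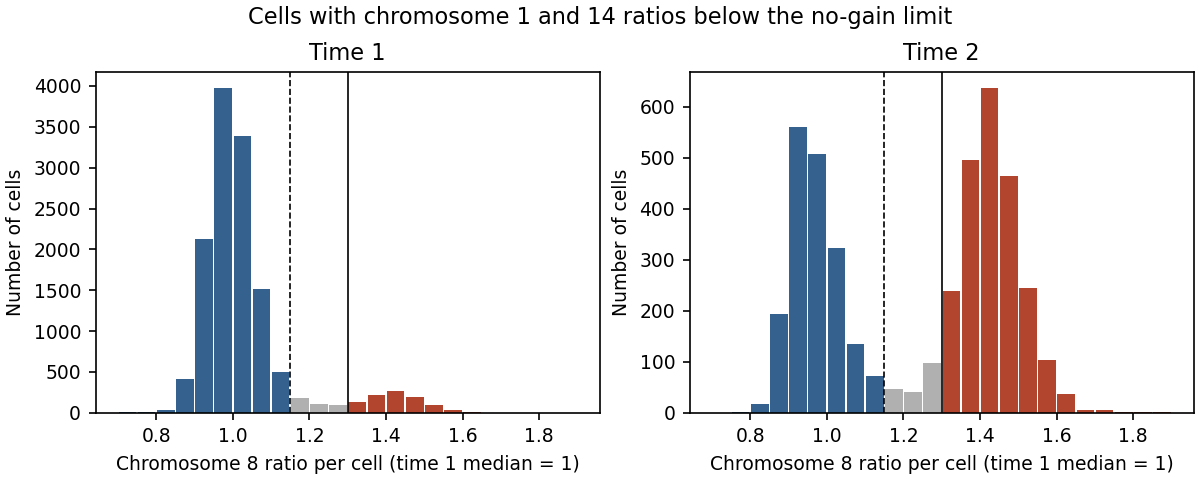
Number of cells (vertical axis) by chromosome 8 ratio per cell (horizontal axis, in bins of 0.05) at time 1 and time 2, for cells with chromosome 1 and 14 ratios below 1.15. Blue bars are cells with no gain, red bars gained cells and grey bars cells between the limits (dashed line 1.15, solid line 1.3); the upper mode held 2236 cells at time 2 and 952 at time 1.

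In the gained class the chromosome 8 ratio had a median of 1.43 (quartiles 1.39 to 1.48), against 0.963 (0.923 to 1.01) with no gain. The chromosome 1 ratio had a median of 1.08 in both classes, so many cells of each sat close under the limit. The medians of the 16 autosomes that form the denominator of these ratios, and so average near 1 by construction, ran from 0.966 to 1.04 in gained cells and from 0.955 to 1.05 in cells with no gain. Other autosomes reached a ratio of 1.3 in 125 gained cells (5.59%) and in 189 cells with no gain (10.4%).

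Of all chromosomes, including the chromosome 8 that set the classes, the X chromosome had the median ratios furthest apart between them. Its ratio is scaled to 1 in cells with at least 2 UMIs of the Y genes Ddx3y, Eif2s3y, Kdm5d and Uty, so values near 1 mean the output of a single active X. The X ratio had a median of 1.03 in gained cells and 1.73 in cells with no gain. Below an X ratio of 1.2, here called X-low, were 2182 gained cells (97.6%) and 637 cells with no gain (35.2%). Y-positive cells made up 11.5% of X-low gained cells and 11.6% of X-low cells with no gain. A comparison of all cells is thus largely one of X-low cells with a mixture of X-low and X-high ones, and many results are given both in all cells and in X-low cells. Only 54 gained cells were X-high, 31 of them with an X ratio below 1.3, close to the limit of 1.2.

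**Figure D2:**
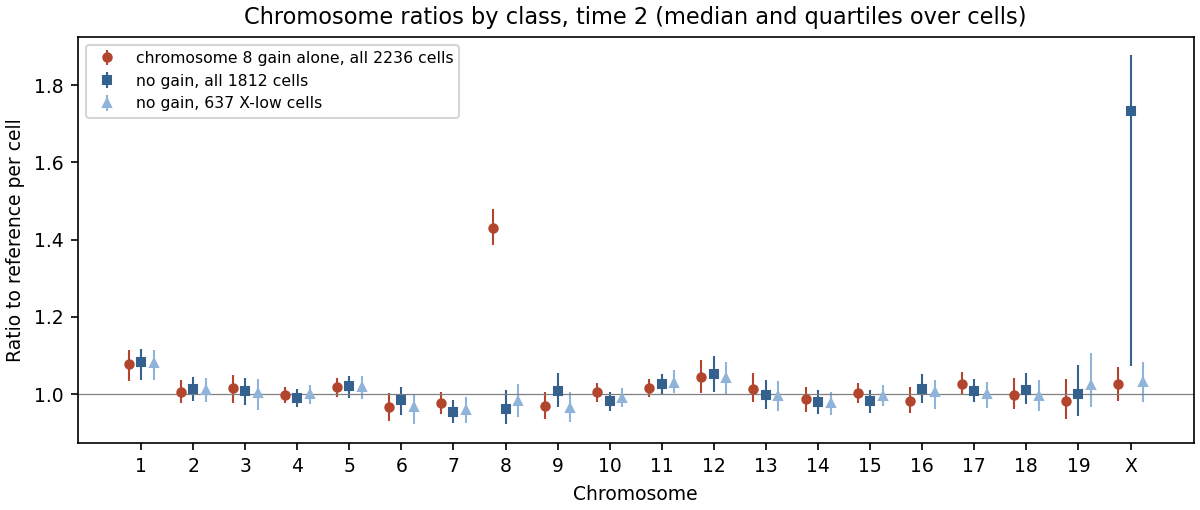
Ratio per chromosome (vertical axis, scaled as in the text) for chromosomes 1 to 19 and X (horizontal axis) at time 2; points are medians and bars quartiles over cells. Red circles are the 2236 gained cells, blue squares all 1812 cells with no gain and light blue triangles the 637 X-low cells with no gain; chromosome 8 stands apart at 1.43 and X at 1.73.

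Most genes on chromosome 8 were higher in the gained class, by close to the same amount along its length. Genes with at least 20 CPM in either class were compared as the log2 ratio of CPM plus 1, gained over not gained, and a gene past 1.3-fold counts as higher or lower. On chromosome 8, 255 of 330 genes were higher (77.3%) and 3 were lower (0.909%), with a median log2 ratio of 0.55. Restricted to X-low cells, 260 of 326 were higher (79.8%) and 0 lower (0.0%), with a median of 0.49 (quartiles 0.40 to 0.58). A full step from 2 to 3 copies is a log2 ratio of 0.58 before scaling to CPM. The CPM totals include chromosome 8, so the same step reads somewhat below 0.58 here. Genes on other autosomes had a median of -0.04 in X-low cells, and chromosome 8 medians under other scalings are given further below. When the class was set by one alternate set of chromosome 8 genes and read from the other, the X-low medians were 0.49 and 0.49.

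In X-low cells, consecutive windows of 20 compared genes had medians from 0.43 to 0.55. The last 6 genes, short of a full window, had a median of 0.39. Each of these stretches of the chromosome was thus higher in the gained class. Genes of low, middle and high level gave medians of 0.51, 0.48 and 0.51. The same rule in X-low cells of time 1 gave windows from 0.42 to 0.55. Cells with gains of 1 and 8 set against cells with a gain of 1 alone, in X-low cells of time 2, gave windows from 0.37 to 0.51.

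**Figure D3:**
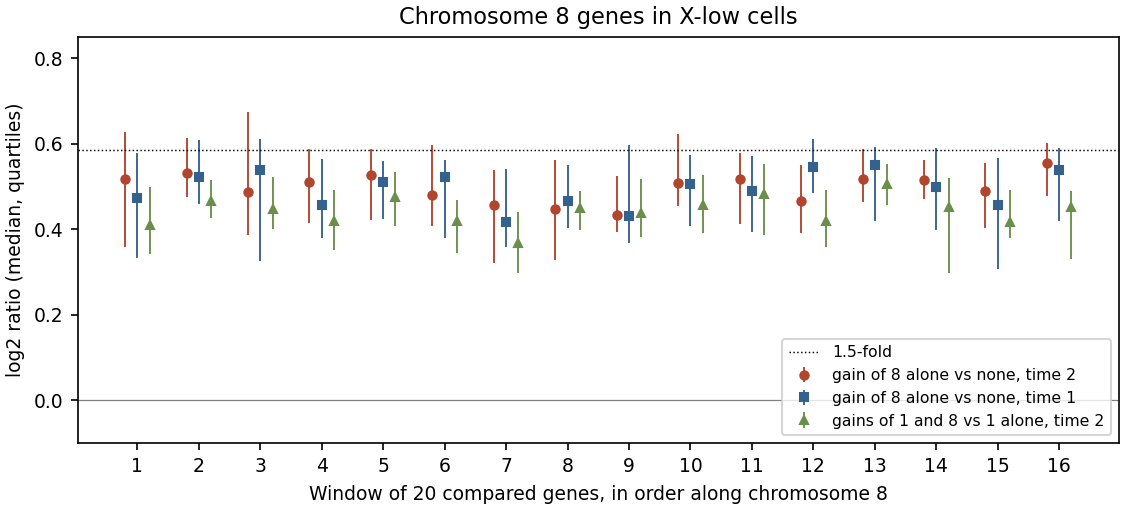
Median log2 ratio (points) and quartiles over genes (bars) in 16 consecutive windows of 20 compared genes along chromosome 8 (horizontal axis, window number) in X-low cells, for the gain of 8 alone at time 2 (red circles) and time 1 (blue squares) and for gains of 1 and 8 against 1 alone (green triangles). The dotted line marks 0.58, the step from 2 to 3 copies before scaling to CPM, which lowers it somewhat. Every window median lies between 0.37 and 0.55.

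Nanos3 (ENSMUSG00000056155, GRCm38 chromosome 8, 84173731 to 84185217, minus strand, protein coding), an RNA-binding protein of germ cell development, had the highest ratio on the chromosome. In X-low cells its per-cell level ran from a 10th percentile of 0 over a median of 34 to a 90th percentile of 163 CPM with the gain, and from 0 over 0 to 70 CPM without it. UMIs of Nanos3 were seen in 67.6% of the former and 44.9% of the latter, so the classes overlapped. Its class level was 58.7 CPM (57.2 to 60.2) against 23.2 CPM (21.6 to 25), a log2 ratio of 1.3, and 2.00 in all cells. At time 1 the X-low ratio was 0.80, and for gains of 1 and 8 against 1 alone it was 0.41. Nanos3 thus exceeded the step of an added copy in both libraries, though not in cells that also carried the chromosome 1 gain.

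The other genes with high ratios in all cells lay closer to the rest of the chromosome in X-low cells. Dusp4, a phosphatase that switches off MAP kinases, had log2 ratios of 1.35 in all cells and 0.69 in X-low cells. Cotl1, an actin-binding protein, had 1.25 and 0.74, and the zinc-finger gene Zfp1 had 1.25 and 0.73. For Znrf1, an E3 ubiquitin ligase, they were 1.16 and 0.68. C330021F23Rik had 1.22 and 0.83. The metallothionein Mt4 had 1.29 and 0.47, and Plvap, a protein of endothelial diaphragms, 1.14 and 0.43. These 8 genes were the highest of the chromosome in all cells, and each was also higher past 1.3-fold in X-low cells.

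The 8 lowest ratios on chromosome 8 in all cells were each nearer to or above 0 in X-low cells. Sfrp1, a secreted Wnt antagonist, had 13.7 CPM (13.0 to 14.4) with the gain and 50 CPM (48.6 to 51.4) without it, a log2 ratio of -1.79, but 13.6 against 15.1 CPM in X-low cells. Gabarapl2, an autophagy protein, had -0.74 in all cells and -0.02 in X-low cells, at 242 against 245 CPM. Cdyl2, a chromodomain gene, had -0.52 and -0.09. Gins2, a subunit of the replicative helicase, had -0.20 and 0.20, and the transcription factor Sall1 had -0.17 and 0.42. Adrb3, a beta-adrenergic receptor, had -0.15 and 0.19, the osmotic stress factor Nfat5 -0.02 and 0.23, and the centrosomal protein gene Tacc1 -0.02 and 0.28. Sfrp1, Cdyl2 and Adrb3 were under 20 CPM in both X-low classes and outside the counts there. Of these 8, Gabarapl2 is the well-measured gene that kept a ratio near 0 in X-low cells. Its ratio was 0.05 at time 1 and 0.07 for gains of 1 and 8 against 1 alone.

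Among chromosome 8 genes of known role, 36 of 44 could be compared and 25 were higher in X-low cells, beside 79.8% of all compared genes of the chromosome, with a median log2 ratio of 0.48 beside 0.49 for the whole chromosome. Zfp42 (ENSMUSG00000051176, chromosome 8, 43295063 to 43306980, minus strand), the naive-state marker also called REX1, had a 10th percentile of 38.5, a median of 134 and a 90th percentile of 269 CPM per X-low gained cell, against 0, 77 and 172 CPM. Its class levels were 149 and 87.2 CPM, with log2 ratios of 0.76 in X-low cells, 0.77 at time 1 and 0.60 for gains of 1 and 8 against 1 alone. Klf2 (ENSMUSG00000055148, chromosome 8, 72319033 to 72321656, plus strand), a naive-state transcription factor, had 497 against 327 CPM, a log2 ratio of 0.60, with 0.77 at time 1 and 0.30 for gains of 1 and 8 against 1 alone. Both naive-state genes of the chromosome were thus higher past 1.3-fold with the gain of 8 alone at both times.

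Other chromosome 8 genes of known role ranged more widely. The ribosomal protein gene Rpl13 had a log2 ratio of 0.61 in X-low cells, while 81 ribosomal protein genes elsewhere had a median of 0.03. Gsr, glutathione reductase, had 0.79 and the lysosomal membrane protein gene Lamp1 0.77. Mcm5, of the replicative helicase, had 0.48 and Ctcf, the chromatin loop factor, 0.34. Ctcf and Mt1 were not past 1.3-fold in X-low cells. Mt1 and Mt2, which bind metal ions, had 0.30 and 0.43 in X-low cells and 0.82 each in all cells. Bst2, an antiviral membrane protein, had 1.12 in all cells, 0.33 in X-low cells, short of 1.3-fold, and 0.05 at time 1 in X-low cells. Psmb10, an immunoproteasome subunit, had 92.2 against 96.7 CPM in X-low cells, a log2 ratio of -0.07.

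Off chromosome 8, lower genes outnumbered higher ones, and far fewer passed 1.3-fold in X-low cells than in all cells. X dosage, line and the number of cells differ together between these comparisons and cannot be told apart. In all cells, 227 of 4648 genes on other autosomes were higher (4.88%) and 382 lower (8.22%). X-low cells gave 20 of 4586 higher (0.436%) and 135 lower (2.94%), and a median log2 ratio of -0.04. Scaling by trimmed means moved that median to 0.04 and the X-low counts to 49 higher and 87 lower, and in all cells gave 303 and 315. Ordered by level and split into 3 sets of nearly equal size, the lowest set held 84 of the 135 lower genes and the highest set 22. Counting error is largest in the lowest set, and its part in these counts was not tested.

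Of the 10 genes with the lowest ratios on other autosomes in all cells, 6 were under 20 CPM in both X-low classes. Tbx3, a naive-state T-box factor, had 17.4 CPM with the gain and 102.9 CPM without it, a log2 ratio of -2.50, but 17.3 against 28.6 CPM in X-low cells, a ratio of -0.70. Smc1b, a meiotic cohesin subunit, had -2.40 in all cells, with 8.41 against 12.6 CPM in X-low cells. Tuba3a, an alpha-tubulin, had -2.30, Laptm5, a lysosomal protein, -2.26, and Tesc, a calcium-binding protein, -2.23. Foxd3, a transcription factor of pluripotent and neural crest cells, had -2.08, the lysophosphatidic acid receptor gene Lpar1 -1.96 and the cytokine receptor gene Crlf2 -1.91. Smc1b, Tuba3a, Laptm5, Tesc, Foxd3 and Lpar1 were the 6 under 20 CPM in both X-low classes. The noncoding RNA Platr3, with -1.97 in all cells, had 15.5 against 37.9 CPM in X-low cells, and Baiap2l1, with -1.92, had 6.3 against 30.2 CPM. Both passed the minimum there only through the class with no gain. The naive list off chromosome 8 showed the same dependence: 7 of 9 compared members were lower in all cells, beside 8.22% of genes on other autosomes, with a median log2 ratio of -0.90. Nr0b1, one of the 7, is X-linked, and 77.4% of X-linked genes were lower. In X-low cells 1 was lower (Tbx3), beside 2.94%, and 1 higher (Tcl1), beside 0.436%, with a median of -0.02. Tbx3 reached 20 CPM only in the class with no gain, in all cells and in X-low cells, so its call is no evidence of a direction.

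The highest ratios on other autosomes in all cells were similarly reduced in X-low cells. Capg, which caps actin filaments, had 70.5 against 26.5 CPM in all cells, a log2 ratio of 1.38, and 70.3 against 41.5 CPM in X-low cells, a ratio of 0.75. Dppa3, a maternal factor also called STELLA, had 420 against 198 CPM and a ratio of 1.08, but 0.26 in X-low cells and -0.41 at time 1 in X-low cells. Plac8 had 1.24 in all cells and 0.17 in X-low cells, and the myosin light chain gene Myl9 1.12 and 0.06. For Eif4g3, a translation initiation factor, they were 1.12 and 0.42, for Elmo1, a Rac activator subunit, 1.03 and 0.34, and for the cell cycle kinase gene Cdk6 1.03 and 0.42. Ap3b2, a vesicle coat subunit, had 0.98 and 0.27, Ina, a neurofilament, 0.98 and 0.18, and Adk, adenosine kinase, 0.94 and 0.33.

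Within X-low cells the genes lowest in the gained class formed a short list with large ratios. The protein-coding gene Baiap2l1 (ENSMUSG00000038859, minus strand of chromosome 5 from 144264526 to 144358112), an adaptor between membranes and actin, had 6.3 CPM (5.8 to 6.8) with the gain and 30.2 CPM (28.3 to 32.2) without it, a log2 ratio of -2.10. UMIs of Baiap2l1 were seen in 14.7% of gained cells and 33.1% of the others, with medians of 0 and 90th percentiles of 21.9 and 117 CPM. Its high level in the class with no gain was therefore carried by a minority of its cells. Bri3 overlaps Baiap2l1 on the opposite strand. The ratio was -1.63 at time 1 and -1.89 for gains of 1 and 8 against 1 alone, where it was under 20 CPM in both classes.

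Ipp (ENSMUSG00000028696, chromosome 4, 116507549 to 116538243, plus strand, protein coding), a kelch-repeat protein, had 21.3 CPM (20.4 to 22.2) against 70.0 CPM (67.0 to 73.0), a log2 ratio of -1.67. Per X-low cell its median was 0 CPM with the gain and 30.5 CPM without it, and its 90th percentiles were 73.1 and 188 CPM. Pla2g1b (ENSMUSG00000029522, chromosome 5, 115466262 to 115474722, plus strand, protein coding), a secreted phospholipase, had 41.9 CPM (40.6 to 43.1) against 110.6 CPM (106.9 to 114.4), a ratio of -1.38. Pla2g1b had a per-cell median of 0 CPM with the gain and 90.8 CPM without it, and was seen in 48.4% against 83.2% of cells. For Ipp the ratios were -1.90 at time 1 and -1.84 for gains of 1 and 8 against 1 alone, and for Pla2g1b -1.57 and -1.21. Both genes were thus lower by more than the step of a copy in each of these comparisons, and the classes still overlapped cell by cell.

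The other 7 of the 10 lowest genes in X-low cells had ratios from -1.43 to -0.96. Baiap2l1, Pou3f1, Platr3, Cbr3, Krt8 and H19 passed the 20 CPM minimum only through the class with no gain. Pou3f1, a POU factor of the primed epiblast also called OCT6, had 14.6 against 41.2 CPM, a log2 ratio of -1.43, with 30.3% against 47.1% of cells showing a UMI. The noncoding RNA Platr3 had -1.24, Cbr3, a carbonyl reductase, -1.18, and Id2, an inhibitor of helix-loop-helix factors, -1.11. Krt8, an epithelial keratin, had 14.8 against 32.7 CPM and a ratio of -1.09. H19, an imprinted noncoding RNA, had -1.02 and Cald1, which binds actin and myosin, -0.96. The ratios of Pou3f1 were -0.87 at time 1 and -0.51 for gains of 1 and 8 against 1 alone. Those of Id2 were -0.69 and -1.19.

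Higher genes off chromosome 8 in X-low cells had smaller ratios. After Capg came Cdkn2a, the locus of the cell cycle inhibitors p16 and p19ARF, with 46.1 against 30.0 CPM and a log2 ratio of 0.60. Ratios were 0.55 for AA467197, 0.54 for Sh3gl2, an endophilin, 0.51 for Tcl1, a cofactor of the AKT kinase, 0.51 for the phosphatase gene Ptpn6, 0.50 for Hsf2bp, a meiotic recombination factor, and 0.49 for Acot13, a thioesterase. S100a6, a calcium-binding protein, had 363 CPM (359 to 366) against 254 CPM (248 to 259), a ratio of 0.51. Its per-cell medians were 267 and 171 CPM and the classes overlapped widely. Its ratios of 0.44 at time 1 and 0.52 for gains of 1 and 8 against 1 alone were also past 1.3-fold. AA467197, Sh3gl2 and Ptpn6 were low genes, with a median of 0 CPM per X-low cell with no gain. Across all cells the ratios were -0.01 for AA467197, 0.90 for Sh3gl2, -0.95 for Tcl1, 0.91 for Ptpn6, 0.06 for Hsf2bp and 0.74 for Acot13. Tcl1 was thus lower in all cells and higher in X-low cells.

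Gm11808 (ENSMUSG00000068240, chromosome 4, 3973092 to 3973595, minus strand) had 71.4 against 47.3 CPM in X-low cells and a log2 ratio of 0.58. Its count is uncertain, since its sequence is not unique among transcripts.

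**Figure D4:**
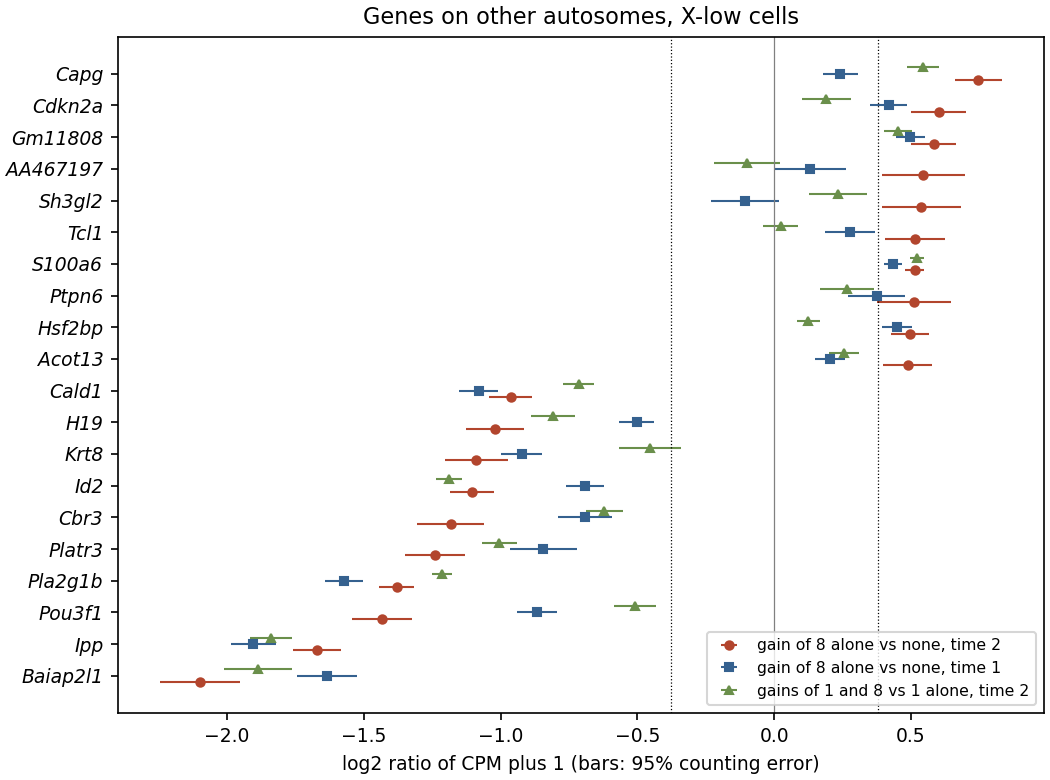
Log2 ratio (horizontal axis) of the 10 highest and 10 lowest genes on other autosomes in X-low cells at time 2 (red circles), with the same genes at time 1 (blue squares) and for gains of 1 and 8 against 1 alone (green triangles); bars are 95% counting error and dotted lines mark 1.3-fold. The 10 lowest genes have ratios below 0 in all 3 comparisons, from -2.10 for Baiap2l1 at the left, and the 10 highest spread from -0.11 to 0.75.

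Comparisons that shared no cells were set side by side over other autosomes. Their classes were not equally matched for the Y chromosome. At time 1, Y-positive cells made up 1.76% of X-low gained cells and 18.6% of X-low cells with no gain. On the chromosome 1 background they made up 6.71% of X-low cells with both gains and 10.8% of those with 1 alone. The part of this difference in the values was not tested. X-low cells at time 1 gave 28 of 4670 genes higher (0.6%) and 177 lower (3.79%), and 48 higher and 136 lower under trimmed means. Gains of 1 and 8 against 1 alone, in X-low cells, gave 14 of 4462 higher (0.314%) and 114 lower (2.55%), and 24 and 81 under trimmed means. Across 4393 genes compared at both times, the log2 ratios had a Pearson correlation of 0.65. Genes are not independent replicates, and the libraries share the same 9 lines. Of 126 genes lower at time 2 and 137 lower at time 1 among them, 65 were lower in both, or 51.6% and 47.4% of each list. Against the comparison on the chromosome 1 background, the correlation was 0.60 over 4345 genes, and 54 genes were lower in both, 47.0% of 115 and 50.9% of 106.

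In all 3 comparisons 36 of 4225 genes were lower and 3 higher. These counts use CPM scaling, under which other autosomes had median log2 ratios of -0.04 at time 2, -0.03 at time 1 and -0.03 on the chromosome 1 background. Under trimmed means these medians were 0.04, 0.02 and 0.04, and the overlaps were not counted again. The 3 higher genes were S100a6, Gm11808 and Cenpk. Cenpk, a kinetochore subunit named after its values were seen, had log2 ratios of 0.42 at time 2, 0.53 at time 1 and 0.52 for gains of 1 and 8 against 1 alone. Lower in all 3 were Ipp, Pla2g1b, Platr3, Pou3f1, Id2, Cbr3, Cald1 and H19 of the genes described above. At time 2, Platr3, Pou3f1, Cbr3 and H19 passed the level minimum only through the class with no gain. Their calls there are no evidence of a direction, though they count among the 36. Dnmt3b, a de novo DNA methyltransferase, was also among them, with ratios of -0.93, -0.63 and -0.59, as were the laminin gene Lamb1 and the immediate early gene Egr1.

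Of 10 primed-epiblast genes, 4 could be compared in X-low cells (Dnmt3b, Lef1, Pou3f1 and Sox4), and Dnmt3b alone reached 20 CPM in both classes. The other 3 passed the minimum only through the class with no gain, where they were higher, so their count and the list's median are no evidence of a direction. In all cells Pou3f1 and Otx2 were the 2 lower members of 4 compared, beside 8.22% of genes on other autosomes. When cells with another autosome gained were left out there, Pou3f1 was no longer compared, and 1 of 2 members (Otx2) was lower. In X-low cells Dnmt3b had 87.0 against 166.2 CPM, the WNT effector Lef1 15.1 against 20.7 CPM and the SOX factor Sox4 17.8 against 32.3 CPM. Lef1 was no longer past 1.3-fold under trimmed means. Of 7 DNA methylation genes, 3 were lower in X-low cells at time 2 (Dnmt3b, Dnmt3a and Dnmt3l), beside 2.94% of genes on other autosomes, and of these 3 Dnmt3b was also lower past 1.3-fold in X-low cells at time 1 and on the chromosome 1 background. In all cells 2 were lower (Tet2 and Dnmt3l), beside 8.22%.

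Some imprinted and cytoskeletal genes were lower in X-low cells, and both lists were divided in all cells. Of 11 imprinted genes compared in X-low cells, 5 were lower, beside 2.94% of all genes on other autosomes, and 0 higher: Peg10, H19, Cdkn1c, Meg3 and Rian, with a median over the list of -0.37. In all cells 3 of 12 were lower (Peg10, H19 and Zrsr1) and 2 higher (Cdkn1c and Phlda2), beside 8.22% and 4.88% of genes on other autosomes, with a median of 0.04. Meg3 and Rian, noncoding RNAs of the imprinted Dlk1-Dio3 cluster, had 112 against 159 CPM and 24.6 against 36.3 CPM. Cdkn1c, an imprinted cell cycle inhibitor, had a log2 ratio of -0.60 in X-low cells but 0.49 in all cells. Of 8 adhesion and cytoskeleton genes off chromosome 8, 4 were lower in X-low cells, beside 2.94% of all genes on other autosomes: Krt8, its partner keratin Krt18 at -0.84, the intermediate filament Vim at -0.77 and the actin-binding Tagln at -0.64. Vim and Tagln reached 20 CPM in both classes, whereas Krt8, Krt18 and, of the imprinted genes, H19 passed the minimum only through the class with no gain. In all cells that list had 3 higher (Tagln, Cldn6 and Cldn7), 1 lower (Vim), beside the same shares, and a median of 0.06. Several of these genes are also made by other cell types, whose markers were summed. Summed levels in X-low cells with and without the gain were 11.4 and 29.7 CPM for 6 trophoblast markers, 20.7 and 30.0 CPM for 9 primitive endoderm markers, 43.1 and 80.4 CPM for 6 primed epiblast markers, 5.42 and 5.00 CPM for 6 mesendoderm markers, and 6.64 and 8.21 CPM for 8 fibroblast markers. None of these markers was at 0. Pou3f1, a primed epiblast marker here, was itself picked for its low ratio in X-low cells. The limits on Fgf5, Fgf8, Car2, Col1a1 and Bgn in the choice of cells also bear on these sums, so they are no separate check. The part of other cell types in the lower values was not tested.

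Few members of the stress and growth lists off chromosome 8 passed 1.3-fold in X-low cells, where 2.94% of genes on other autosomes were lower and their median was -0.04. Of 22 chaperones 0 were past 1.3-fold, with a median log2 ratio of -0.01. Among 18 genes of the unfolded protein and integrated stress responses, 2 were lower (Ddit4 and Xbp1), and among 13 p53 targets 2 (Plk2 and Pmaip1). The medians were -0.10 and -0.16. Ddit4 was not past 1.3-fold under either other scaling, nor Plk2 under trimmed means. Glycolysis and hypoxia genes had a median of -0.17 with 1 of 18 lower (Slc2a1), cholesterol and fatty acid synthesis -0.15 with 0 of 18, apoptosis -0.15 with 1 of 10 (Pmaip1) and Nrf2 and antioxidant genes -0.13 with 0 of 10. The 33 proteasome genes had a median of -0.02, 75 nuclear genes of oxidative phosphorylation -0.02, 17 DNA replication genes 0.01 and 22 mitosis genes -0.04, with 0 of each past 1.3-fold. In all cells 9 of 75 oxidative phosphorylation genes were lower, or 5 under trimmed means, with the X-linked Ndufb11, Ndufa1 and Cox7b in both. Glycolysis and hypoxia genes there had 5 of 18 lower, with the X-linked Pgk1 among them, and 1 higher, and apoptosis genes 3 of 11 lower, with the X-linked Xiap among them, and 1 higher. The shares over other autosomes in all cells were 8.22% lower and 4.88% higher. The sign of X-low medians this small depends on the scaling: under trimmed means the chaperone median was 0.06, the proteasome 0.06, oxidative phosphorylation 0.05 and mitosis 0.04. Core pluripotency genes had 1 of 12 lower (Fgf4, at -0.39), which was not past 1.3-fold under either other scaling. In all cells 5 of 12 were lower (Nanog, Fgf4, Dppa5a, Tdgf1 and Dppa2), beside 8.22% of genes on other autosomes, with a median of -0.27.

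**Figure D5:**
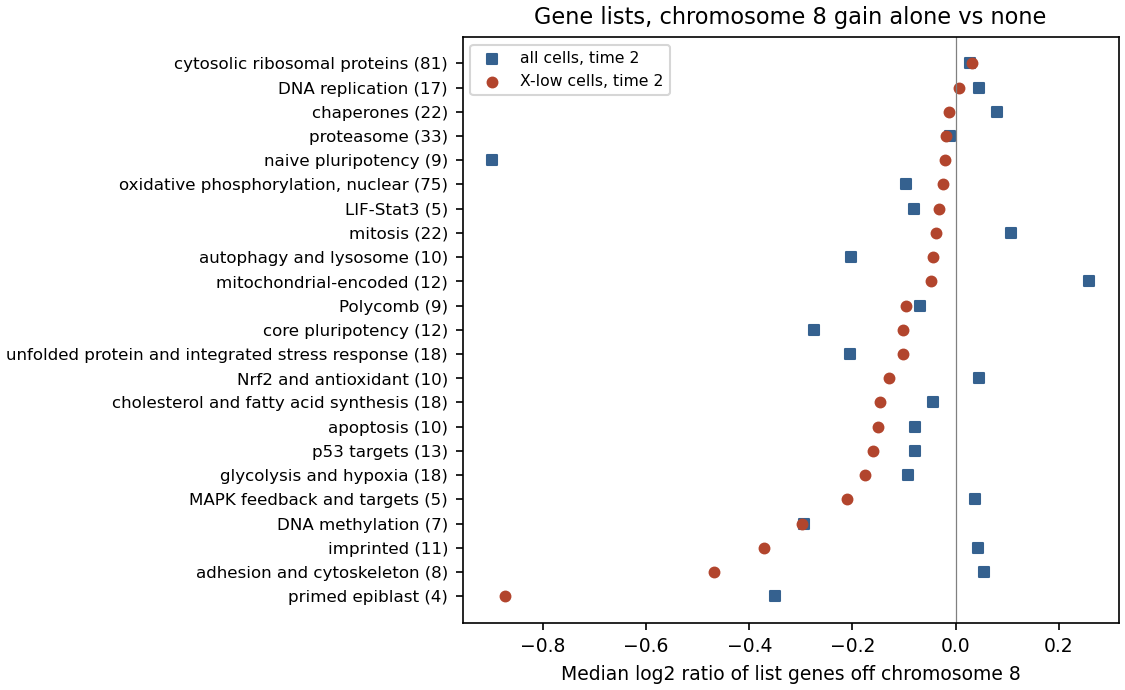
Median log2 ratio (horizontal axis) over the compared genes of each list off chromosome 8, at time 2 in all cells (blue squares) and in X-low cells (red circles), with the number of genes compared in X-low cells in brackets. Naive pluripotency genes move from -0.90 in all cells to -0.02 in X-low cells.

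On chromosome 11 the X-low comparison had a median log2 ratio of -0.11, the lowest of the other autosomes. A chromosome 11 ratio of at least 1.3 was found in 62 of 637 X-low cells with no gain (9.73%) and in 35 of 2182 X-low gained cells (1.60%). Leaving out every cell with another autosome at that ratio moved the median of chromosome 11 to -0.06 and its lower genes from 14 to 5. Over all other autosomes that step left 19 higher and 116 lower genes. The class with no gain of 1, 8 or 14 was therefore not free of high ratios on other autosomes.

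X-linked genes separated the classes in all cells, with 147 of 190 lower (77.4%), 1 higher (0.526%) and a median log2 ratio of -0.62. In X-low cells 12 of 154 were lower (7.79%) and 2 higher (1.3%), with a median of -0.04. Among the lowest in all cells, Xlr3a had a ratio of -4.36, Xlr3c -3.32, the homeobox gene Rhox1 -2.39 and the creatine transporter gene Slc6a8 -2.24. Xlr3a and Xlr3c are near-identical copies and their split is uncertain. Each of these 4 genes was under 20 CPM in both X-low classes. Usp26, a ubiquitin protease gene of the germ line, was the exception: it had 2.0 CPM (1.8 to 2.3) against 23.9 CPM (22.2 to 25.7) in X-low cells, with UMIs in 4.8% and 15.5% of cells. The 5 highest X-linked ratios in all cells were 0.86 for Hmgn5, a nucleosome-binding protein, 0.36 for 2010204K13Rik, 0.33 for Pls3, an actin bundler, 0.26 for Phf6 and 0.25 for Pdzd4. Of these 5, Hmgn5 passed 1.3-fold in all cells, and its X-low ratio was -0.04.

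In the X-high stratum, with 54 gained cells, 227 of 331 chromosome 8 genes were higher (68.6%) and 6 lower (1.81%), and on other autosomes 615 of 4779 were higher (12.9%) and 659 lower (13.8%), or 505 and 855 under trimmed means. All cells at time 1 gave 252 of 332 chromosome 8 genes higher (75.9%) and 1 lower (0.301%), with 49 of 4686 other autosomal genes higher (1.05%) and 242 lower (5.16%), or 91 and 196 under trimmed means. Gains of 1 and 8 against 1 alone, in all cells, gave 210 of 320 higher (65.6%) and 0 lower (0.0%) on chromosome 8, and 7 of 4474 higher (0.156%) and 123 lower (2.75%) elsewhere, or 22 and 73 under trimmed means. Restricted to X-low cells, chromosome 8 had 227 of 320 higher (70.9%) in that comparison, and at time 1 255 of 333 higher (76.6%) and 1 lower (0.3%). Chromosome 8 genes were mostly higher in each of these comparisons, whereas the share off it depended on the cells compared.

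Y-positive X-low cells gave a comparison within cells that hold a Y chromosome, 252 with the gain and 74 without. On chromosome 8, 226 of 328 genes were higher (68.9%) and 2 lower (0.61%), with a median log2 ratio of 0.50. On other autosomes 188 of 4711 were higher (3.99%) and 615 lower (13.1%), more than in all X-low cells and from far fewer control cells. Baiap2l1 had a ratio of -3.19 there, Pou3f1 -2.41, Ipp -2.44 and Pla2g1b -1.11. Usp26 had 1.3 CPM with the gain and 74.6 CPM without it. These cells are part of the X-low cells in which the genes were picked, so the values are not a separate check.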

How the data were processed

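Pooled embryonic stem cells were profiled with 10x 3' chemistry version 3.1, per the labels' protocols, with each time point captured as 1 library. UMI count matrices were deposited, and bcl2fastq 2.20.0.422, Cell Ranger 6.1.2 and the mm10 (GRCm38) build are named per the submitters' processing notes. Gene positions came from GENCODE M21, which matched 32235 of 32285 genes, and unmatched genes held 0.00163% of UMIs in the classes compared.

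From 28317 barcodes at time 2 and 25962 at time 1 that passed the UMI and gene minimums and the mitochondrial limit, the remaining limits left 21387 and 14079 cells. UMIs were summed per class and scaled to CPM with exact Poisson intervals, and ratios were taken as log2 of CPM plus 1. These ratios understate changes of low genes. With 1 library per time point no test was possible. The cells, gene lists and rules were chosen with earlier results of these data known. Named genes were the 8 highest and 8 lowest ratios on chromosome 8, the 10 highest and 10 lowest on other autosomes in all and in X-low cells, the 5 highest and 5 lowest on X, and members of the lists. A few others are marked in the text.

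Scrublet in scanpy 1.11.5 marked 0 cells in either library with its automatic threshold, so doublets were kept. Other alternatives changed the count minimum, pseudocount, fold, scaling (trimmed means from edgeR 4.0.16 in R 4.3.3), thresholds and cell filters. The code (Python 3.11.15, numpy 2.4.6, scipy 1.17.1, pandas 2.3.3) was tested on simulated data. Some genes are not reported here.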

Additional observations from a re-analysis of the deposited data

Results flagged for a closer look

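At time 2, 5 of the genes named for a high or low ratio were past 1.3-fold in opposite directions in X-low and X-high cells. Only genes compared in both strata were considered, smaller differences in sign were not flagged, and the difference was not tested. Only 54 gained cells were X-high, 31 of them near the limit that separates the strata. Krt8 had a log2 ratio of -1.09 in X-low cells and 3.34 in X-high cells, where its level was 198 CPM with the gain and 18.7 CPM without it. Cald1, the actin and myosin binding gene, had -0.96 and 1.93. H19, the imprinted noncoding RNA, had -1.02 and 1.48. Pou3f1, the primed-epiblast factor, had -1.43 and 0.65. Tcl1, the AKT cofactor, went the other way, with 0.51 in X-low cells and -1.36 in X-high cells.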

How the results depend on the processing

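No median of chromosome 8 genes changed sign under the alternatives, and none of the genes past 1.3-fold reversed among those named for a high or low ratio. Genes named only as list members were not run singly. List medians near 0 did change sign, as did, under at least 1 alternative, the small ratios of 2010204K13Rik, Cdyl2, Crlf2, Gabarapl2, Gins2, Hmgn5, Myl9, Pdzd4, Phf6, Pls3, Sfrp1, Slc6a8 and Xlr3c in X-low cells and of AA467197, Krt8, Nfat5 and Tacc1 in all cells. The number of genes on other autosomes past the fold moved with the level minimum and the fold in all 5 comparisons. With minimums of 10 and 100 CPM, no minimum, and folds of 1.2 and 1.5 in place of 1.3, it was 976, 131, 2523, 1101 and 254 at time 2 (609 as reported), 292, 26, 1112, 397 and 54 in X-low cells (155), 2066, 266, 6216, 1927 and 669 in X-high cells (1274), 505, 55, 1581, 611 and 113 at time 1 (291), and 220, 26, 693, 303 and 48 for gains of 1 and 8 against 1 alone (130). A pseudocount of 10 CPM gave 87 in X-low cells, 186 at time 1 and 75 for gains of 1 and 8 against 1 alone. A gain threshold of 1.2 gave 767 in X-high cells, and Y-positive X-low cells alone gave 803.

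The median log2 ratio of chromosome 8 genes stayed above 0 in each of these. With no minimum, a pseudocount of 10 CPM, and trimmed means it was 0.20, 0.46 and 0.60 at time 2 (0.55), 0.24, 0.41 and 0.57 in X-low cells (0.49), 0.29, 0.45 and 0.47 in X-high cells (0.53), 0.12, 0.42 and 0.56 at time 1 (0.51), and 0.12, 0.36 and 0.51 for gains of 1 and 8 against 1 alone (0.42). A minimum of 100 CPM gave 0.52 in X-low cells and 0.45 for gains of 1 and 8 against 1 alone, and scaling to the autosomes other than 1, 8 and 14 gave 0.52 and 0.45. A gain threshold of 1.2 gave 0.45 in X-high cells and 0.47 at time 1. A threshold of 1.4 gave 0.57 in X-high cells, 0.53 at time 1 and 0.45 for gains of 1 and 8 against 1 alone. A no-gain limit of 1.1 gave 0.58 in X-high cells and 0.45 for the last comparison. Classes set from odd genes gave 0.48 at time 1. For gains of 1 and 8 against 1 alone, the median was 0.44 from odd and 0.36 from even genes, 0.45 with per-cell means, 0.45 when thinned, 0.44 without abundant genes, 0.45 with a UMI ceiling and 0.44 in X-low cells. The cause was not tested.

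The restriction to X-low cells at time 1 and for gains of 1 and 8, the Y-positive and X ratio subsets and the UMI ceiling were chosen after seeing the data. Leaving out a replicate could not be run, since each time point has 1 library, and the alternative without Scrublet doublets was not run because none was marked. No paired analysis was possible because each time point has 1 library and both classes lie within it. Low genes are limited by counting error, most of all in the 54 X-high gained cells and the 74 Y-positive cells with no gain.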

Other observations

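Of 12 transcripts encoded by the mitochondrial genome, 3 (mt-Co2, mt-Co3 and mt-Cytb) were higher past 1.3-fold in gained cells when all cells were compared, beside 4.88% of genes on other autosomes. The median log2 ratio was 0.26, and in X-low cells it was -0.05 with 0 past 1.3-fold. The median mitochondrial share per cell was 2.03% against 1.69% in all cells.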
